A study of Mus musculus with 14 samples.

Results

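Collagen genes were followed across mouse bone marrow stroma in tumour-free and mammary-tumour-bearing mice. The members were gene symbols made of Col, a type number, the letter a and a chain number (a few such genes were not analysed here), which gave 41 of the 50600 genes in the bulk RNA-seq table. The same 41 genes were among the 32285 genes of the stromal single-cell tables. By structure they comprised 9 fibrillar collagens, 6 basement membrane collagens, 9 fibril-associated collagens with interrupted helices (FACIT) and 17 other collagens.

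The series holds 14 libraries from mouse bone marrow. Bulk RNA-seq was made from mesenchymal stem cells (MSC) of tumour-free mice (4 libraries) and of tumour-bearing mice whose samples are named for Py230 (4 libraries). Py230 is a mouse mammary tumour cell line that came from a PyMT tumour. Droplet single-cell RNA-seq was made from stromal cells of WT mice (1 library) and PyMT mice (1 library), and from hematopoietic stem and progenitor cells (HSPC) of 2 WT and 2 PyMT libraries. PyMT mice develop mammary tumours driven by the polyoma virus middle T antigen, and the labels name neither the promoter of that transgene nor the strain, age or number of animals behind a library. The titles of all 4 HSPC libraries begin with PyMT, although the genotype label of 2 of them is WT. No label says that the bulk replicates came from separate animals, so the p-values rest on library-to-library spread that may be only technical.

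Collagens are secreted proteins whose chains wind into a rope-like helix. Fibrillar collagens (types I, III and V among them) build the tension-bearing fibrils of bone, tendon and skin, type IV collagen forms the network of basement membranes under endothelium, FACIT collagens sit on fibril surfaces, and type VI collagen forms beaded filaments around cells. In marrow, osteoblasts lay down type I collagen as bone matrix, while LepR+ mesenchymal cells surround the sinusoids and support blood formation.

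Several collagen genes have another collagen gene as their neighbour in the genome. Col6a6, Col6a5 and Col6a4 lay in tandem on the minus strand of chromosome 9 (mm10 coordinates, GENCODE M21), with Col6a6 at chr9:105687809-105828160, Col6a5 at chr9:105856078-105960643 and Col6a4 at chr9:105989454-106096783. The gaps between their gene bodies were 27917 and 28810 bases, with no protein-coding gene between them. Col4a1 and Col4a2, the chains of the ubiquitous type IV network, lay head to head on chromosome 8, where their annotated gene bodies overlapped by 22 bases. Col4a3 with Col4a4 and Col4a5 with Col4a6 had the same head-to-head arrangement, with gaps of 71 and 1308 bases. The promoter windows of Col6a4 and Col6a5 are printed because these genes differed in opposite directions between the bulk groups, and those of Col4a1 and Col4a2 because they show the shared start region of a pair that led the endothelial clusters. Each window, from RefSeq on build GRCm38.p6, runs 5′ to 3′ on the gene's strand from 250 bases before the start to 50 bases after it, and capitals mark the TATA box TATAAA, the CCAAT element or the GC box GGGCGG, each on either strand. The Col6a4 window is chr9:106096642-106096941 and the Col6a5 window chr9:105960594-105960893, both on the minus strand. The Col4a1 window is chr8:11312777-11313076 on the minus strand and the Col4a2 window chr8:11312555-11312854 on the plus strand.
Col6a4: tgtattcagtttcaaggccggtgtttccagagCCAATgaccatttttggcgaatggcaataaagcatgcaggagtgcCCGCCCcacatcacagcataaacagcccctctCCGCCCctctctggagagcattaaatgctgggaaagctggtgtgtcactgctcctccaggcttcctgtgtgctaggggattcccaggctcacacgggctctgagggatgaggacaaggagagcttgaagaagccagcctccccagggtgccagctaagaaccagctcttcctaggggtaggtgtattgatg
Col6a5: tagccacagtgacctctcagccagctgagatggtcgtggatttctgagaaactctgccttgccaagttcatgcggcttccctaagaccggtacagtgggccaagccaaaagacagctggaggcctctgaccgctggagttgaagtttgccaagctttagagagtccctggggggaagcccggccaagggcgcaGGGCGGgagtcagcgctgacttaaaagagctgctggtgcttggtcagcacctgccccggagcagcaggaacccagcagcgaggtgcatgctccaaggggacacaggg
Col4a1: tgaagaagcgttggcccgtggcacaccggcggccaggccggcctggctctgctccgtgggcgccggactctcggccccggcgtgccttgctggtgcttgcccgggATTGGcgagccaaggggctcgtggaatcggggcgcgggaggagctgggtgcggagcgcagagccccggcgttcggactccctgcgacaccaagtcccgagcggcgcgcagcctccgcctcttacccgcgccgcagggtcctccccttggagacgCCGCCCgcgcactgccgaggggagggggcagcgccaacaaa
Col4a2: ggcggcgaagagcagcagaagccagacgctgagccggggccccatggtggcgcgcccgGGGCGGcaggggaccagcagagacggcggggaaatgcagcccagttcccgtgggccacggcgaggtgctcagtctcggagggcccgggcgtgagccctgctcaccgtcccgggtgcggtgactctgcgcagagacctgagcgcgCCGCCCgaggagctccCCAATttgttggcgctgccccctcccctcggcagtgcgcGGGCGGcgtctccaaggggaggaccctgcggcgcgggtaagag
The 2 annotated type IV starts were 21 bases apart, so their windows shared 78 bases, read on opposite strands. The Col6a4 window held 1 CCAAT and 2 GGGCGG, whereas the Col6a5 window held 1 GGGCGG and no CCAAT. RefSeq windows were found for 33 of the 41 members, 36 windows in all; Col1a1 and Col12a1 have no entry. GGGCGG was in 22 of these 36 windows (61.1%), against 35.7% of 32851 windows over all genes. CCAAT was in 13 of the 36 (36.1% against 37.4%) and TATAAA in 3 (8.33% against 13.6%). A match is a run of letters and was not taken as a binding site.

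The bulk libraries held between 4301375 and 9811251 counted reads. Bulk levels are given as CPM, reads of a gene relative to all counted reads of a library, on library sizes scaled by the trimmed mean of M values (TMM), which count longer transcripts more, so genes were ranked only per kilobase of exon. The stromal libraries kept 2190 of 2508 WT cells and 3191 of 3563 PyMT cells after filtering, with medians of 4176.5 and 4471 unique molecular identifiers (UMIs) per cell. A UMI marks 1 captured 3′ end, and stromal levels are CPM of the UMIs summed over all cells of a cluster in a library, so they are not scaled by length. The WT and PyMT cells kept shared 1 cell barcode. Each genotype has a single stromal library, so its differences were not tested, and the intervals given there cover counting error only.

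In the bulk MSC libraries type I, type IV and type VI chains were the most abundant collagens, and the collagens together took between 0.859% and 2.52% of the counted reads. Per kilobase of exon, Col1a1 had the highest mean level in both groups (384 CPM per kb tumour-free and 678 CPM per kb Py230). In the tumour-free group Col6a1 (307 CPM per kb), Col1a2 (262 CPM per kb) and Col4a1 (232 CPM per kb) came next. In the Py230 group the order of these was Col1a2 (295 CPM per kb), Col6a1 (224 CPM per kb) and Col4a1 (220 CPM per kb). Neighbours in each of these orders differed by less than the larger SD of the pair, as the type I chains varied over a wide range among the libraries of 1 group. All 41 members passed the filter on low counts. The percentage of reads on collagens was lowest in Py230 library 1 and highest in Py230 library 3, both from the same group.

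**Figure D1:**
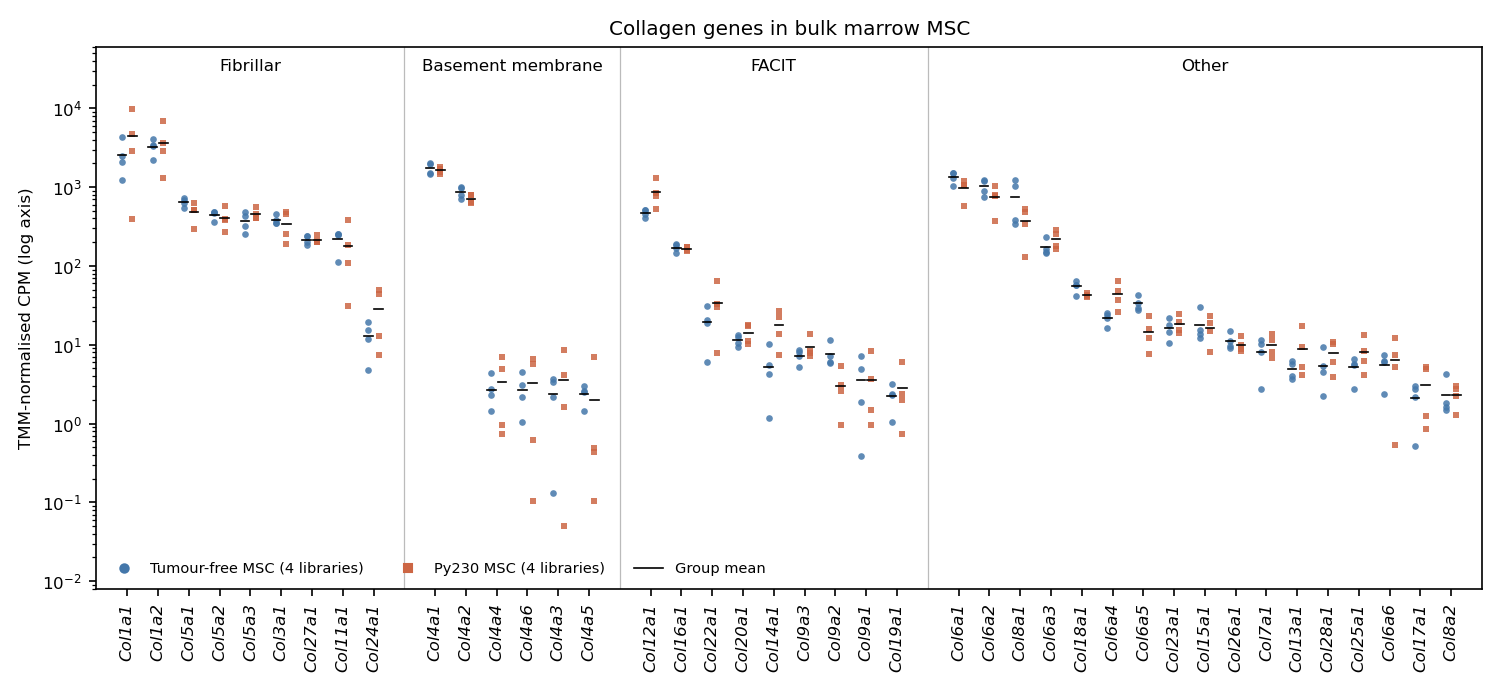
Levels of the collagen genes in the bulk MSC libraries, as TMM-scaled CPM on a log axis, with 1 point per library, 4 tumour-free and 4 Py230, and genes ordered within their structural class. The type I chains reach the highest levels and spread widest in the Py230 group; a library without a read is drawn at the bottom of the axis.

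Between tumour-free and Py230 MSC, collagen expression as a whole stayed within the spread of the libraries, and a pair of neighbouring type VI genes differed in opposite directions. Col6a4 was higher and Col6a5 was lower in Py230 MSC, and these were the only members past the threshold in edgeR's quasi-likelihood test (adjusted p under 0.05 over 16317 genes). That is 1 member higher, where 1.99% of all genes tested were higher, and 1 member lower, where 2.74% were lower. In either direction it is 2 of 41 members against 4.73% of all genes, so the share of collagens called was near the background. By log2 difference 23 members were above 0 and 18 below, with a median of 0.17 against 0.04 over all genes. The median was -0.02 for the fibrillar, 0.07 for the basement membrane, 0.33 for the FACIT and 0.17 for the other collagens. An unadjusted p under 0.05 was reached by 9 members, where 16.2% of all genes reached it. In bulk samples, fewer cells of a type and less RNA per cell cannot be told apart.

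Col6a4 and Col6a5 encode long alternative chains of type VI collagen. The human counterpart of Col6a4 is split and not functional, so that this chain is known from the mouse. Col6a4 stood at 24.9, 21.6, 16.5 and 24.1 CPM in tumour-free libraries 1 to 4 and at 25.7, 48.1, 37.4 and 63.7 CPM in Py230 libraries 1 to 4. Every Py230 library lay above every tumour-free library, although Py230 1 did so by less than 1 CPM. The mean rose from 21.8 ± 3.78 (SD, n = 4) to 43.7 ± 16.2 CPM (SD, n = 4), a log2 difference of 1.0 (SE 0.24, edgeR adjusted p = 0.0347). The call was lost in 7 of the 8 fits that left out a library: without tumour-free 1, 2, 3 or 4 (adjusted p = 0.0942, 0.123, 0.114 and 0.0735) and without Py230 2, 3 or 4 (0.107, 0.0578 and 0.0544), but not without Py230 1 (0.0031). A fit with a replicate block also lost the call, which held in 5 of 13 alternatives. Over all alternatives the adjusted p ran from 2.88e-06 to 0.123, and the difference was above 0 in each.

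Col6a5 stood at 27.4, 42.4, 34.3 and 29.3 CPM in the tumour-free libraries and at 7.55, 15.9, 12.01 and 23.3 CPM in the Py230 libraries. No Py230 library reached the lowest tumour-free one. The mean fell from 33.4 ± 6.70 (SD, n = 4) to 14.7 ± 6.69 CPM (SD, n = 4), a log2 difference of -1.19 (SE 0.27, edgeR adjusted p = 0.0248). It passed under 9 of 13 alternatives and missed the threshold without tumour-free 2 (0.0649) or 3 (0.0538) and without Py230 2 (0.0725) or 3 (0.0542). The ratio of Col6a4 to Col6a5 in CPM was 0.910, 0.510, 0.482 and 0.822 in the tumour-free libraries and 3.40, 3.03, 3.11 and 2.73 in the Py230 libraries. The ratio joins both chains that the test picked out, so it describes the same difference and is no further support for it. Of the 3 annotated genes that overlap Col6a4, Gm24631 and Gm36993 held at most 7 reads in any library, against 119 to 388 reads on Col6a4. The antisense gene Gm47575, whose exons overlap those of Col6a4, was not found among the bulk genes, so its reads are not known. The third gene of the tandem, Col6a6, was tested and not called.

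**Figure D2:**
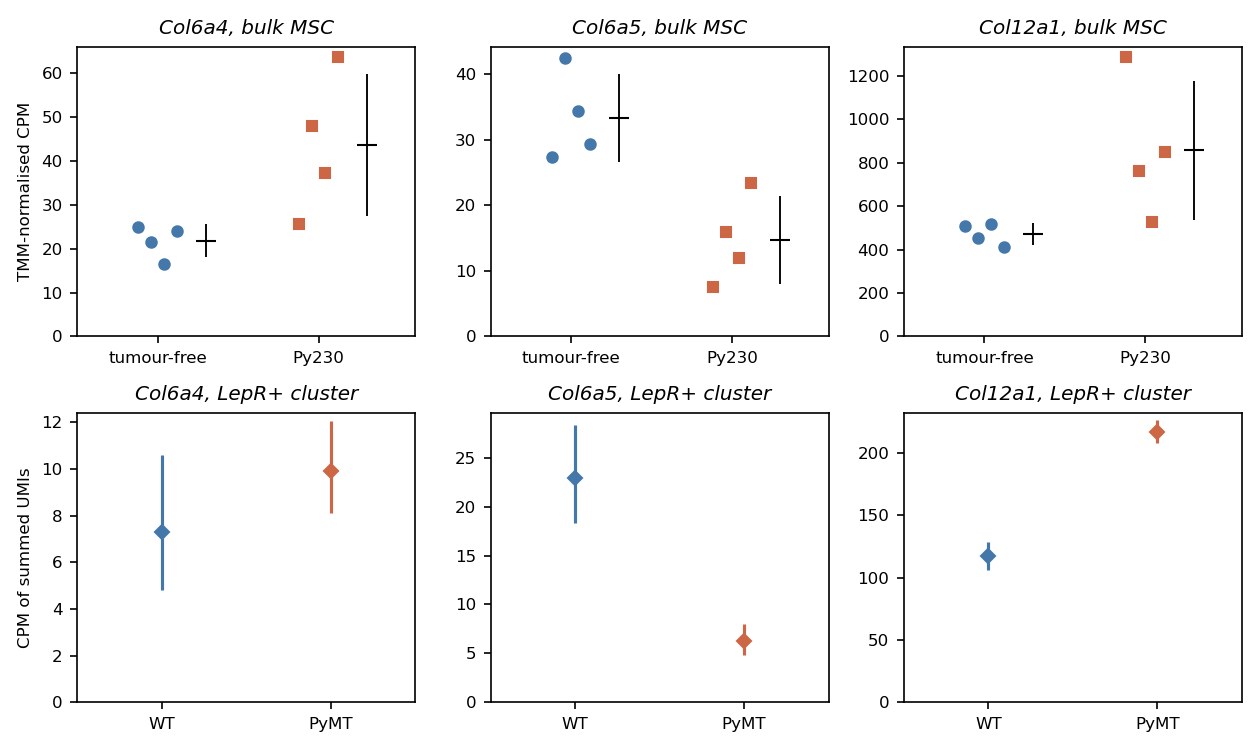
Col6a4, Col6a5 and Col12a1 in each of the 8 bulk MSC libraries as TMM-scaled CPM (upper panels; a point per library, a dash at the mean, bars of 1 SD) and in LepR+ mesenchymal-like cells of the WT and PyMT stromal libraries as CPM of summed UMIs (lower panels; diamonds with 95% counting intervals). For each gene the 4 tumour-free and the 4 Py230 libraries do not overlap, and in the stromal libraries Col6a5 is lower and Col12a1 higher in PyMT.

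For 4 of the 41 members the highest library of 1 group lay below the lowest of the other, where this was so for 11% of all genes. Of these, 2 were higher in Py230, where 5.36% of all genes were, and 2 were lower, where 5.61% were. Beside Col6a4 and Col6a5 these were Col12a1 and Col9a2; Col9a2 was chosen for its value. Col12a1, a FACIT chain that binds type I fibrils, stood at 510, 452, 516 and 412 CPM in the tumour-free libraries and at 1289, 763, 526 and 849 CPM in the Py230 libraries. Py230 3 was only just above the highest tumour-free library. Its log2 difference was 0.86 (SE 0.22, edgeR adjusted p = 0.0567), which missed the threshold, but it passed without Py230 1 (0.0462), without Py230 3 (0.00213), without a low count filter (2.96e-05) and in DESeq2 (0.0346). Col12a1 made up most of the summed FACIT level, which was 740, 698, 755 and 608 CPM tumour-free and 1495, 1000, 814 and 1119 CPM in Py230, again without overlap. The next FACIT genes by level were not called. Col16a1 had a log2 difference of -0.05 (adjusted p = 0.892, edgeR), above 0 (0.005) when libraries were scaled by their totals alone, and Col22a1 one of 0.85 with a standard error of 0.67 (adjusted p = 0.644, edgeR).

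Col9a2, a chain of cartilage type IX collagen, stood at 5.97, 7.15, 5.81 and 11.3 CPM tumour-free and at 2.59, 3.098, 0.948 and 5.44 CPM in Py230 (log2 difference -1.38, edgeR adjusted p = 0.0996). The highest Py230 library was just below the lowest tumour-free one. Summed chondrocyte markers moved the same way, from 86.9 to 109 CPM tumour-free and 42.0 to 76.3 CPM in Py230, with 2 of the 3 markers tested lower and 4 of the 5 listed matched. Most of this sum was Sox9 (TMM-scaled means of 84.4 and 49.6 CPM), before Acan (11.8 and 2.57 CPM), and both were called. Sox9 was also present in the WT LepR+ stromal cells described below (72.9 CPM), without the other listed markers. The sum thus does not mark cartilage alone. The part of these markers in the Col9a2 values was not tested. Col14a1, a FACIT gene named here for its value, stood at 1.17, 5.49, 10.2 and 4.21 CPM tumour-free and at 13.6, 7.44, 22.3 and 27.0 CPM in Py230. Its groups overlapped between tumour-free 3 and Py230 2, and its log2 difference was 1.72 (edgeR adjusted p = 0.166); DESeq2 called it.

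The type I genes, which encode the chains of the main bone and tendon collagen, varied more within the Py230 group than between groups. Col1a1 stood at 2082, 2465, 4308 and 1228 CPM in the tumour-free libraries and at 390, 4709, 9789 and 2914 CPM in the Py230 libraries. Both the lowest and the highest library of the 8 were Py230 libraries, numbers 1 and 3. The log2 difference was 0.82 with a standard error of 0.89 (edgeR adjusted p = 0.769). Col1a2 stood at 3471, 3300, 4077 and 2188 CPM tumour-free and at 1289, 3621, 6884 and 2845 CPM in Py230, with the same libraries at both ends. Its log2 difference was 0.17 (edgeR adjusted p = 0.929) and turned to -0.37 without Py230 3. The ratio of Col1a1 to Col1a2 reads was 0.302 in Py230 1 and 1.42 in Py230 3, and between 0.561 and 1.06 in the tumour-free libraries.

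Osteolineage markers were mostly lowest in the library where the type I genes were lowest, and differed in where they were highest. Of 7 markers, 6 were lowest in Py230 1, while 3 were highest in Py230 3 (Bglap, Bglap2 and Dmp1), 3 in tumour-free 3 (Alpl, Ifitm5 and Sp7) and Ibsp in tumour-free 2. The osteoblast gene Bglap2 stood at 10.6, 6.32, 16.7 and 5.23 CPM tumour-free and at 0.216, 27.9, 54.5 and 4.08 CPM in Py230. It was thus low in Py230 4, where Col1a1 was above its tumour-free mean, but the markers were split there. In Py230 4 Bglap (7.03 CPM), Dmp1 (14.5 CPM) and Ifitm5 (1.59 CPM) were above their tumour-free means, and Ibsp, Alpl and Sp7 below theirs. Summed osteolineage markers ran from 1836 to 2828 CPM tumour-free and from 714 to 2151 CPM in Py230, with 0 of 7 called. Most of this sum was Ibsp (TMM-scaled means of 2352 and 1462 CPM), before Alpl (136 and 68.1 CPM). The means of Ibsp, Alpl, Ifitm5 and Sp7 were lower in Py230, and those of Bglap, Bglap2 and Dmp1 higher. The part of these markers in the type I values was not tested. Other marker sums, in CPM without TMM scaling, also moved with the groups. LepR+ mesenchymal markers ran from 26331 to 28353 CPM tumour-free and from 14499 to 17859 CPM in Py230, with 3 of 6 lower. Most of this sum was Cxcl12 (means of 20064 and 10375 CPM), which was called with Adipoq and Ebf3, while Lepr, Kitl and Foxc1 were not called. Tendon or ligament markers ran from 44.2 to 154 CPM tumour-free and from 168 to 531 CPM in Py230, and fibroblast markers from 652 to 774 and from 779 to 1007 CPM, with 0 called in either list. Most of the fibroblast sum was Pdgfra (TMM-scaled means of 699 and 856 CPM), before Cd34 (7.24 and 13.0 CPM). On the TMM scale the groups overlapped for Pdgfra, with tumour-free 3 at 768 CPM and Py230 4 at 722 CPM. The narrow gap between the fibroblast sums thus did not hold for their main gene on that scale. Pdgfra was also present in the LepR+ stromal cells described below (536 CPM in WT and 397 CPM in PyMT), so its sum does not mark fibroblasts alone. Sinusoidal endothelial markers ran from 32.0 to 45.8 and from 56.0 to 104 CPM, with 2 of 5 higher. Hematopoietic markers stayed between 6.23 and 18.6 CPM in all 8 libraries. The part of these marker shifts in the collagen values was not tested.

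Among the remaining abundant members, none passed the threshold in edgeR. Of the fibrillar genes, Col5a1, a chain that sets the width of type I fibrils, ran from 550 to 731 CPM tumour-free and from 293 to 627 CPM in Py230 (log2 difference -0.41, edgeR adjusted p = 0.323). Of the basement membrane genes, Col4a1 ran from 1452 to 2009 and from 1456 to 1815 CPM (log2 difference -0.08, edgeR adjusted p = 0.853) and Col4a2 from 710 to 995 and from 630 to 791 CPM (log2 difference -0.28, edgeR adjusted p = 0.302). Col4a4, the next of that class by CPM not divided by length, stood below 7 CPM in every library (log2 difference 0.29, edgeR adjusted p = 0.909), and turned to -0.36 without Py230 1. Col6a1 and Col6a2, chains of the common type VI heterotrimer, were on average lower in Py230, with log2 differences of -0.46 for each (edgeR adjusted p = 0.283 and 0.525); Col6a1 passed without a low count filter (0.0276). Col8a1, a network-forming collagen, stood at 1236, 1028, 386 and 342 CPM tumour-free and at 130, 480, 527 and 343 CPM in Py230 (log2 difference -1.01, edgeR adjusted p = 0.509). Its tumour-free libraries split widely, and libraries 3 and 4 lay within the Py230 range.

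The 15 members with a mean under 10 CPM were unevenly spread over the libraries. Their highest level fell in Py230 4 for 7 of them and in Py230 1 for 4, and their lowest in tumour-free 1 for 6 and in Py230 3 for 6. The libraries also differed in how many genes had a read: 36678 in Py230 4 and 35020 in Py230 1, but 25088 in tumour-free 1 and 21009 in Py230 3. Tumour-free 2 had a read on 35029 genes and was highest for 0 of the 15. The part of this difference in the low collagen values was not tested.

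**Figure D3:**
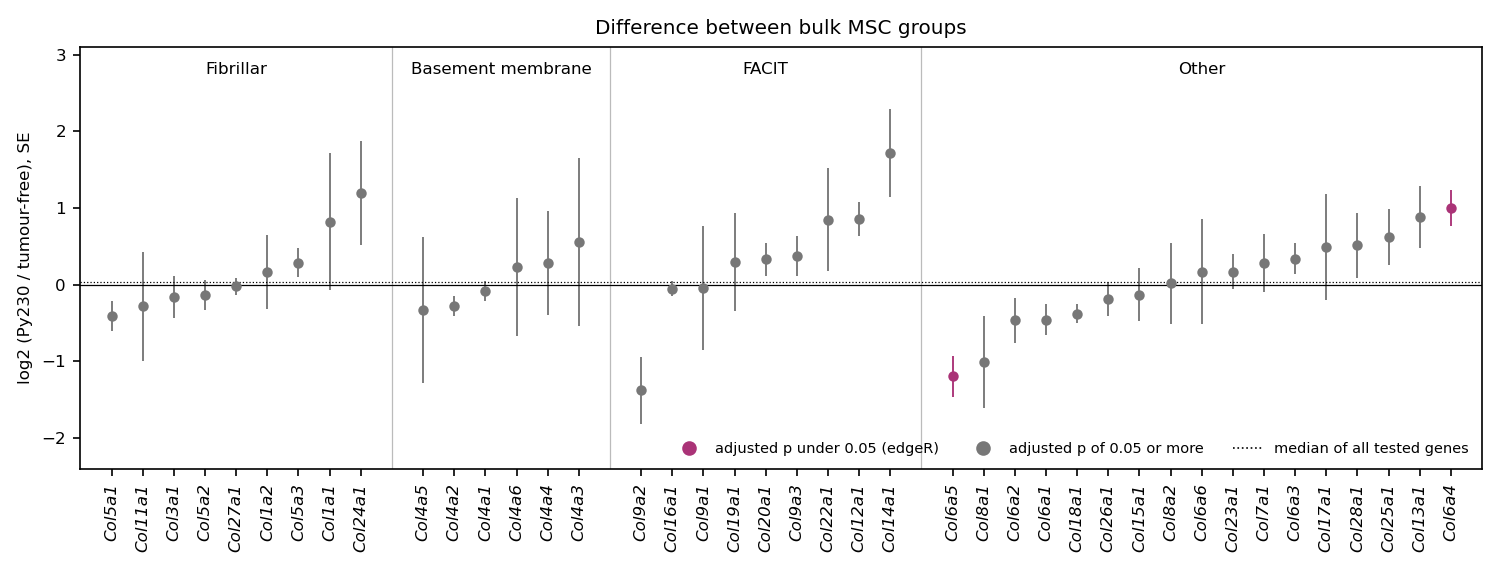
Log2 difference of Py230 over tumour-free MSC for each collagen gene in edgeR, 4 libraries a group, with bars of 1 SE and genes grouped by structural class. The dotted line is the median of all genes tested (0.04), and the called genes are Col6a4 at 1.0 and Col6a5 at -1.19.

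Making a collagen takes enzymes that hydroxylate and fold the chains, proteases and oxidases that trim and crosslink them, and cells read the finished matrix through receptors. Of 44 such genes 43 were tested, with 2 higher and 2 lower in Py230 MSC, where 1.99% and 2.74% of all genes were. The hydroxylation, folding and export list had 1 of 20 higher, the cleavage and crosslinking list 1 of 13 lower, and the receptor list 1 higher and 1 lower of 10. The median log2 difference over the 43 genes was -0.05. P4ha1, a catalytic subunit of prolyl 4-hydroxylase that stabilises the helix, stood at 102, 101, 97.9 and 110 CPM tumour-free and at 172, 169, 158 and 126 CPM in Py230. The groups did not overlap, and it rose by a log2 difference of 0.61 (SE 0.11, edgeR adjusted p = 0.00482), past the threshold in all 13 alternatives. Ddr1, a receptor tyrosine kinase that binds collagen, stood at 83.6, 86.7, 89.996 and 89.2 CPM tumour-free and at 51.5, 37.7, 37.5 and 42.6 CPM in Py230. It fell by 1.05 on the log2 scale (SE 0.11, edgeR adjusted p = 0.000158), past the threshold in all 13 alternatives, with the tumour-free libraries within a narrow band well above the Py230 libraries. The other calls were less stable. Itga2, the collagen-binding integrin alpha subunit, stood at 5.97, 8.65, 4.54 and 4.50 CPM tumour-free and at 9.27, 10.5, 12.5 and 12.7 CPM in Py230 (log2 difference 0.94, edgeR adjusted p = 0.0481). It passed in 3 of 13 alternatives, which gave adjusted p between 0.0326 and 0.153. Tll2, a protease related to the procollagen C-proteinase, stood at 9.09, 10.6, 8.08 and 5.81 CPM tumour-free and at 3.02, 0.868, 1.05 and 4.08 CPM in Py230 (log2 difference -2.0, edgeR adjusted p = 0.0195). It passed in 10 of 13 alternatives, and of the fits that left out a library it missed the threshold without tumour-free 2 (0.0609) and without Py230 2 (0.0581).

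The stromal single cells were grouped by the authors' deposited clusters, and collagen UMIs were summed in each; UMIs from RNA that leaked from other cells were not separated out. Cluster 0 (977 WT and 2242 PyMT cells) carried LepR+ mesenchymal markers at 28199 and 25562 CPM in sum, cluster 1 (441 and 367 cells) tendon or ligament markers at 30701 and 29950 CPM, and cluster 2 (559 and 346 cells) fibroblast markers at 6047 and 4876 CPM. Cluster 3 (55 and 120 cells) carried sinusoidal endothelial markers at 4558 and 5240 CPM, with Stab2 among them, and cluster 5 (63 and 55 cells) osteolineage markers at 62130 and 39355 CPM. These were taken as LepR+ mesenchymal-like, tendon-like, fibroblast-like, sinusoidal endothelial-like and osteolineage-like. Cluster 4 (95 and 61 cells) had arterial or capillary endothelial markers at 13688 and 12079 CPM and no Stab2 UMI. Its LepR+ mesenchymal markers summed to 6488 and 7634 CPM, mostly Cxcl12 (4311 and 5248 CPM) and Kitl (1826 and 1604 CPM). Lepr stood there at 129 and 257 CPM and Adipoq at 42.9 and 69.3 CPM. The cells had a median of only 1116 and 1315 UMIs, and the cluster is called endothelial cluster 4.

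Collagens were unevenly spread over these clusters, and the osteolineage-like cells stood far above the others. They held 56.3% of all collagen UMIs of the WT library in 2.88% of its cells, and 52.8% of those of the PyMT library in 1.72% of its cells. The type I chains alone took 16.5% of all UMIs in WT osteolineage-like cells and 18.5% in PyMT ones. Cells of the cluster differed widely, from 0.0373% to 40.1% of a cell's UMIs in WT with a median of 12.5%, and from 0.293% to 42.0% in PyMT with a median of 3.77%. Summed and per-cell values thus differ in order between the libraries. Osteolineage-like cells held 80.0% (WT) and 81.4% (PyMT) of Col1a1 UMIs and 68.2% and 62.7% of Col1a2 UMIs. Of the 9 fibrillar genes the cluster total was 171349 CPM in WT and 191100 CPM in PyMT, while its basement membrane genes came to 10.6 and 16.99 CPM.

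**Figure D4:**
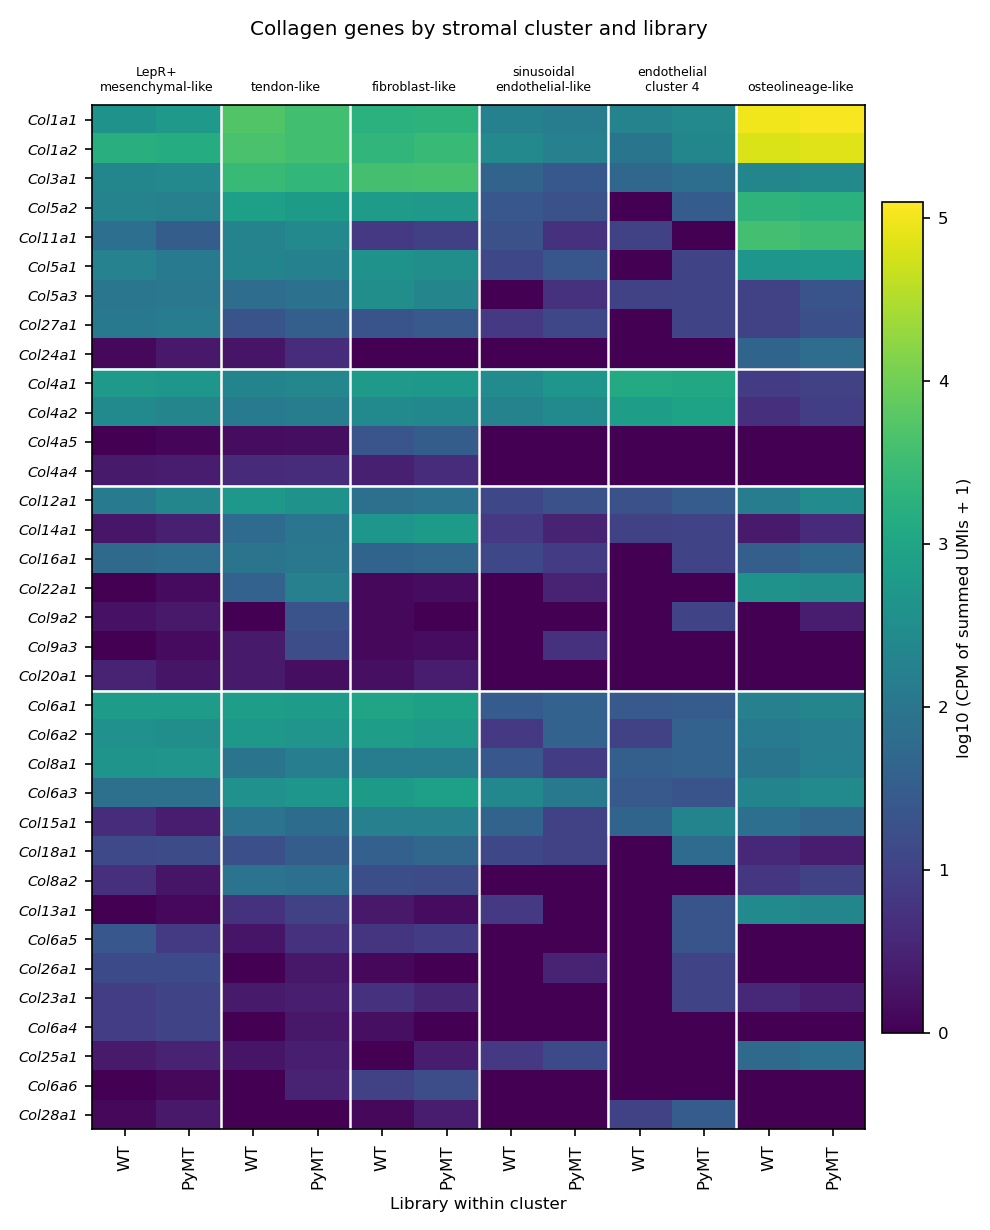
Level of each collagen gene in the 6 stromal clusters of the WT and the PyMT library, as CPM of summed UMIs on a log colour scale, with genes in rows by structural class. The Col1a1 and Col1a2 rows are brightest in the osteolineage-like columns and the Col4a1 and Col4a2 rows in endothelial cluster 4.

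The leading collagens were type I chains in tendon-like and osteolineage-like cells, Col3a1 in fibroblast-like cells, Col1a2 in LepR+ mesenchymal-like cells and Col4a1 in both endothelial clusters. The most abundant members of tendon-like cells were Col1a1 at 5144 CPM in WT and 3575 CPM in PyMT, Col1a2 at 4300 and 3640 CPM, and Col3a1, the fibrillar collagen of soft tissue, at 2780 and 2326 CPM. In fibroblast-like cells Col3a1 led with 3886 and 4222 CPM, before Col1a2 with 2265 and 2895 CPM and Col1a1 with 1819 and 1951 CPM. In LepR+ mesenchymal-like cells Col1a2 led with 1558 and 1452 CPM, followed by Col6a1 with 671 and 625 CPM. Endothelial cluster 4 was led by Col4a1 with 1294 and 1119 CPM and Col4a2 with 686 and 911 CPM. Col4a1 also led the sinusoidal endothelial-like cells, at 285 and 483 CPM. Col4a2 stood at 190 and 271 CPM there, second in PyMT but below Col1a2 (249 CPM) and Col6a3 (237 CPM) in WT. Osteolineage-like cells held Col11a1, which nucleates fibrils with type V collagen, at 3801 and 3128 CPM after the type I chains.

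At least 20 UMIs over both libraries were counted for 35 of the 41 members, and Col19a1 had 0 UMIs in both. Of these 35, 29 had their highest level in the same cluster in WT and PyMT, and 21 did so beyond counting error in both. The osteolineage-like cells were highest for 8 of the 21 (Col1a1, Col1a2, Col5a1, Col5a2, Col11a1, Col13a1, Col22a1 and Col25a1). The fibroblast-like cells were highest for 6 (Col3a1, Col5a3, Col6a1, Col6a2, Col6a3 and Col14a1) and the tendon-like cells for 3 (Col8a2, Col12a1 and Col16a1). Endothelial cluster 4 was highest for Col4a1 and Col4a2, and LepR+ mesenchymal-like cells for Col8a1 and Col27a1. No member was highest in the sinusoidal endothelial-like cells. LepR+ mesenchymal-like cells, the most numerous, held 67.6% of the WT and 87.8% of the PyMT UMIs of Col8a1 and 46.3% and 72.7% of those of Col4a1.

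The balance of the type I chains differed between kinds of cell. The ratio of Col1a1 to Col1a2 UMIs was 0.260 in WT and 0.402 in PyMT LepR+ mesenchymal-like cells, the lowest of the 6 clusters in both libraries. It was 1.54 and 1.56 in osteolineage-like, 1.196 and 0.982 in tendon-like, and 0.803 and 0.674 in fibroblast-like cells. In the endothelial clusters it rested on few UMIs. The 29 Col1a1 UMIs of WT sinusoidal endothelial-like cells came from 2 cells.

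Col6a4 and Col6a5, the chains that differed in bulk MSC, were both detected in LepR+ mesenchymal-like cells. This cluster held 93.1% of the WT and 98.1% of the PyMT UMIs of Col6a4. Col6a5 stood at 23.0 CPM there in WT (85 UMIs in 49 cells) and at 6.30 CPM in PyMT (66 UMIs in 49 cells), a log2 ratio of -1.86 (95% counting interval -2.35 to -1.38). Col6a4 stood at 7.29 CPM in WT and 9.93 CPM in PyMT, a log2 ratio of 0.45 (-0.18 to 1.11), which counting error does not tell from 0. In fibroblast-like cells Col6a5 had 17 UMIs in WT and 15 in PyMT, a log2 ratio of 0.49 (-0.62 to 1.58), which counting error does not tell from 0.

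For the PyMT and WT libraries a member was named where the levels differed by over 1.5-fold, the 95% counting interval of the log2 ratio left out 0, and both libraries together held at least 20 UMIs. In LepR+ mesenchymal-like cells 1 of 26 members was higher, where 8.28% of all genes were, and 4 were lower, where 4.97% were. Col12a1 was the higher one, at 117 CPM in WT and 217 CPM in PyMT, a log2 ratio of 0.89 (0.74 to 1.04). The lower ones were Col6a5, Col11a1 (72.9 and 31.3 CPM, log2 ratio -1.22), and, on few UMIs, Col15a1 (13 and 16 UMIs, log2 ratio -1.20) and Col8a2 (14 and 10 UMIs, log2 ratio -1.98). Osteolineage markers in this cluster summed to 6394 CPM in WT and 3655 CPM in PyMT, and erythroid markers to 365 and 81.4 CPM, and their part in these ratios was not tested. The abundant genes moved less, with log2 ratios of 0.52 for Col1a1 (406 and 583 CPM), -0.10 for Col1a2, -0.10 for Col6a1, -0.25 for Col4a1 and 0.09 for Col8a1, the last below 0 (-0.012) after thinning to 1500 UMIs per cell.

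In tendon-like cells 7 of 24 members were higher, where 11.6% of all genes were, and 0 were lower, where 2.7% were. Col22a1, a FACIT collagen of the muscle-tendon junction, stood at 38.4 CPM in WT and 164 CPM in PyMT (log2 ratio 2.09, 1.74 to 2.46). In PyMT, 90.1% of its UMIs came from the 5% of cells with the most. Col14a1 (log2 ratio 0.78), Col18a1 (0.86), Col27a1 (0.73) and Col8a1 (0.71) were higher by less. LepR+ mesenchymal markers in the tendon-like cells summed to 916 CPM in WT and 1695 CPM in PyMT, and the tendon marker Chad stood at 2629 and 736 CPM. Their part in these ratios was not tested. Type IX collagen was also higher. Col9a2 had 0 UMIs in WT and 35 in PyMT. With the WT value set to a floor of 3 UMIs it was 14.2-fold higher (log2 ratio 3.83, counting interval from 3.45 upward). Col9a3 had 3 and 27 UMIs (log2 ratio 3.45, 1.75 to 5.82). The PyMT UMIs of both genes came from 6 of the 367 PyMT cells, 1 of which held 32 of the 35 Col9a2 UMIs. The same 6 cells held 137 of the 137 Snorc, 25 of the 26 Matn3 and 71 of the 91 Hapln1 UMIs of the cluster, all cartilage genes. Of the other listed chondrocyte markers they held 27 of the 64 Acan and 29 of the 371 Sox9 UMIs, so most of these lay in other cells. Chondrocyte markers in the cluster summed to 170 CPM in WT and 384 CPM in PyMT. The abundant fibrillar genes were lower in PyMT by less than 1.5-fold, with log2 ratios of -0.52 for Col1a1, -0.24 for Col1a2, -0.26 for Col3a1 and -0.36 for Col5a2, and so was Col6a1 with -0.22. Col12a1, which was highest in these cells, was also lower by less than 1.5-fold. It stood at 519 CPM in WT and 403 CPM in PyMT (log2 ratio -0.36, -0.50 to -0.23).

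In fibroblast-like cells 2 of 23 members were higher, where 7.57% of all genes were, and 1 was lower, where 3.03% were. Col5a3, a chain of type V collagen, stood at 330 CPM in WT and 209 CPM in PyMT (log2 ratio -0.66, -0.83 to -0.50). Col4a5 (log2 ratio 0.60) and Col6a6 (0.81) were higher on 28 to 68 UMIs a library, and neither was past the fold without the cells that a doublet caller marked. Col1a2 had a log2 ratio of 0.35, Col6a3 of 0.32, Col6a1 of -0.22 and Col1a1 of 0.10. Col3a1 had a log2 ratio of 0.12, which fell below 0 after thinning to 1500 UMIs per cell (-0.13) and as a mean of per-cell CPM (-0.051); Col1a1 turned the same way (-0.056 and -0.077).

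Osteolineage-like cells had 2 of 18 members higher, where 12.2% of all genes were, and 0 lower, where 3.37% were. Col12a1, which was lower in PyMT in tendon-like cells, stood at 145 CPM in WT and 293 CPM in PyMT (log2 ratio 1.02, 0.67 to 1.37). Col8a1 stood at 94.3 and 159 CPM (log2 ratio 0.75). LepR+ mesenchymal markers in this cluster summed to 458 CPM in WT and 853 CPM in PyMT, and their part in these ratios was not tested. The type I chains had log2 ratios of 0.18 for Col1a1 and 0.16 for Col1a2 on summed UMIs. As means of per-cell CPM these were -0.101 and -0.022, so their direction depended on how cells were weighted. Col11a1 had a log2 ratio of -0.28, Col5a2 of -0.20 and Col5a1 of 0.17, the last below 0 (-0.294) after thinning.

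The endothelial clusters rested on few cells. In sinusoidal endothelial-like cells 1 of 6 members was higher, where 10.4% of all genes were, and 1 was lower, where 4.06% were. Col4a1 stood at 285 CPM in WT and 483 CPM in PyMT (log2 ratio 0.76, 0.31 to 1.25), and Col6a3 at 237 and 113 CPM (-1.08, -1.70 to -0.44). Tendon or ligament markers in this cluster summed to 652 CPM in WT and 101 CPM in PyMT, and their part in these ratios was not tested. In endothelial cluster 4, 2 of 5 members were higher, where 6.88% of all genes were, and 0 were lower, where 5.6% were. Col15a1, which anchors basement membranes, had 5 UMIs in WT and 20 in PyMT (log2 ratio 2.21, 0.75 to 3.98), and Col1a2 had 11 and 22 (1.21, 0.10 to 2.40). After thinning, 19 WT and 25 PyMT cells were left in cluster 4 and the Col1a2 ratio turned to -0.074.

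**Figure D5:**
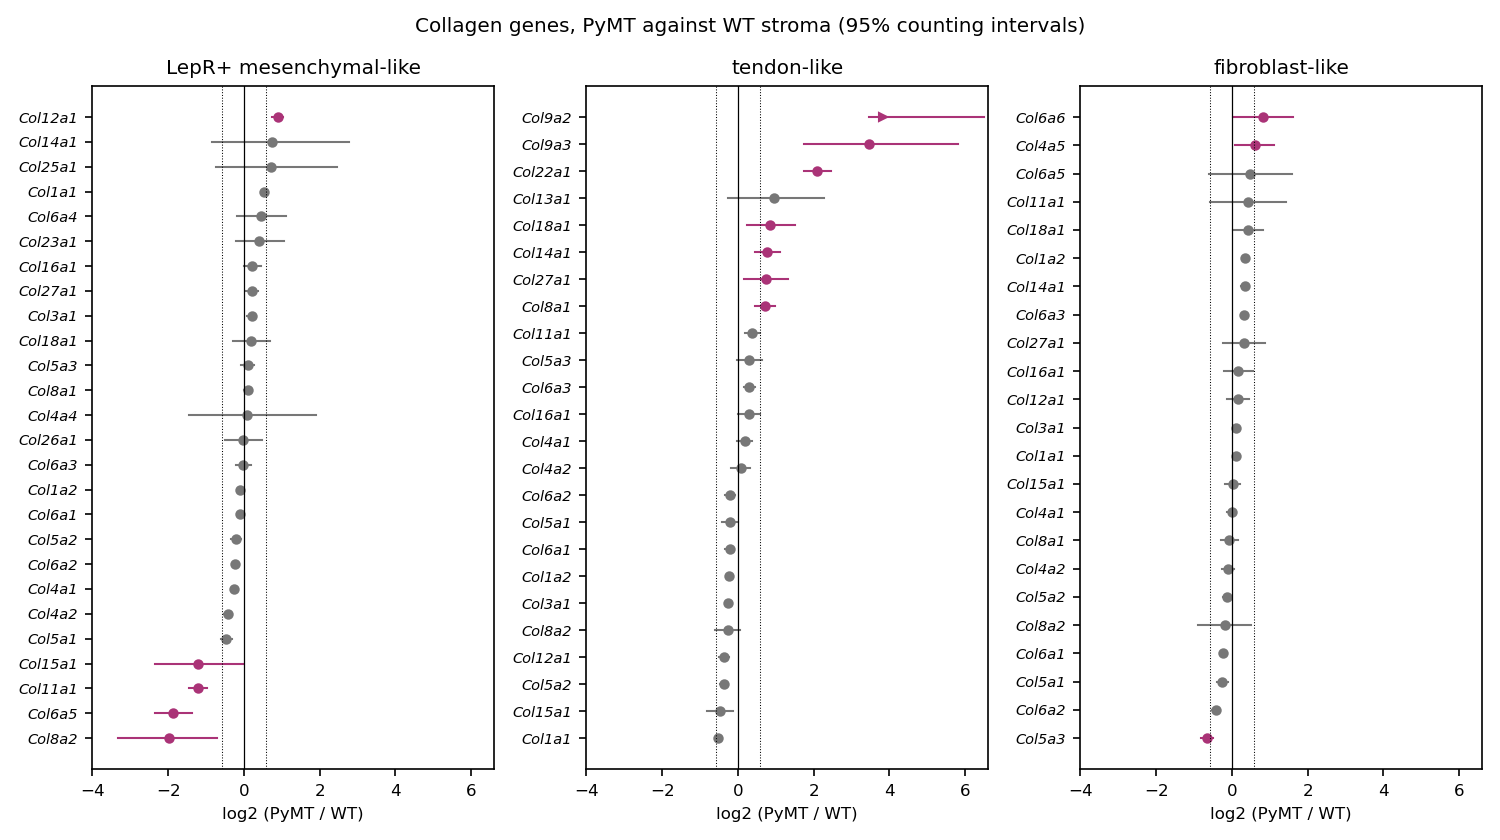
Log2 ratio of PyMT over WT CPM of summed UMIs for the collagen genes with at least 20 UMIs in a cluster. Only the LepR+ mesenchymal-like, tendon-like and fibroblast-like clusters are drawn, with 95% counting intervals and 1 library a genotype. Col12a1 lies above 0 in the LepR+ mesenchymal-like cluster (0.89) and below 0 in the tendon-like cluster (-0.36). Col6a5 lies at -1.86 in the LepR+ mesenchymal-like cluster.

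In LepR+ mesenchymal-like cells Plod2, a lysyl hydroxylase that shapes crosslinks, stood at 106 CPM in WT and 247 CPM in PyMT (log2 ratio 1.22), the 1 of 21 hydroxylation, folding and export genes past the fold there, where 8.28% of all genes were higher. Ddr1 stood at 69.9 and 36.2 CPM (log2 ratio -0.95), the 1 of 8 receptors past the fold, and Adamts3, a procollagen N-proteinase, at 6.21 and 1.91 CPM, the 1 of 10 cleavage and crosslinking genes past it, where 4.97% of all genes were lower. P4ha1, which rose in bulk, stood at 116 and 138 CPM in these cells (log2 ratio 0.26), and Itga2 at 5.13 and 6.59 CPM. P4ha1 had log2 ratios of -0.43 in tendon-like and -0.46 in fibroblast-like cells, and was past the fold lower in endothelial cluster 4 (-1.38). In bulk MSC Plod2 had a log2 difference of 0.56 (edgeR adjusted p = 0.347).

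The HSPC libraries held collagen UMIs at low levels, and their table listed 9 of the 41 members. Col16a1 stood at 7.19 and 10.4 CPM in the libraries labelled WT and at 4.62 and 6.82 CPM in those labelled PyMT. Col4a1 stood at 5.78 and 6.84 CPM and at 5.01 and 6.58 CPM, and Col1a2 at 2.04 and 1.53 CPM and at 0.980 and 1.14 CPM. Col4a2 stood at 4.09 and 4.64 CPM and at 6.16 and 6.08 CPM, and Col18a1 at 1.10 and 1.04 CPM and at 1.82 and 1.46 CPM. The WT and PyMT libraries did not overlap for 2 members higher in PyMT (Col4a2 and Col18a1), where this held for 14.6% of the 11992 genes with at least 20 UMIs, and for 5 lower (Col16a1, Col1a2, Col4a4, Col5a1 and Col28a1), where it held for 45.2%; neither count is read as particular to collagens. These values are given as levels, and no test was run on them. The 9 members ranged from 0.0700 CPM (Col28a1) to 10.4 CPM over the 4 libraries, and the type I level lay far below that of stromal clusters.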

How the data were processed

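Bulk values were raw counts per gene as deposited by the authors; reads were trimmed with Trim Galore and aligned with STAR 2.5.3a to mm10, per the submitters' processing notes, from a stranded total RNA kit, per the labels' protocols. The read counter, its strand setting and its annotation were not given in the sources used here, so reads of overlapping antisense genes may not be separable. Stromal and HSPC values were counts of UMIs per gene and cell, deposited by the authors with their clusters; Cell Ranger 6.0.0 is named in the submitters' processing notes.

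The members, gene lists and marker lists were chosen with earlier results of these data known. Bulk IDs were named from the authors' deposited annotation, and coordinates and exon lengths came from GENCODE M21 (50376 of 50600 IDs matched). Bulk counts were tested with edgeR 4.0.16 in R 4.3.3 (filterByExpr, TMM, robust quasi-likelihood, Benjamini-Hochberg adjustment over 16317 genes). Every counted feature had a gene ID. On simulated counts for this comparison (16400 genes) it recovered 5.97% of genes changed 1.5-fold, 83.6% of those changed 2-fold and 100% of those changed 4-fold. The simulation gave every gene the same dispersion, while the spread of real genes differs. The mitochondrial share of a cell's UMIs was a fraction in the authors' deposited cell tables. A stromal cell was kept if it had 500 genes or more and a mitochondrial share below 10%, and UMIs were summed per authors' cluster and library. Doublets were called with Scrublet in scanpy 1.11.5 (1.37% of WT and 0.125% of PyMT cells) and kept, except in an alternative. The PyMT rate is very low, and whether the caller worked there was not tested. Ratios have exact binomial 95% intervals. No test was run between the stromal libraries.

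Named genes were every member past the threshold or fold, the 3 highest of each class in bulk, the 5 highest of each cluster and the pathway genes past the threshold in bulk. Members named for their values besides are said to be so. Alternatives were other scalings, no low count filter, a replicate block, DESeq2 1.42.0, leaving out each library, all cells, no doublets, thinning to 1500 UMIs and per-cell means.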

Additional observations from a re-analysis of the deposited data

Results flagged for a closer look

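In 5 of the 82 groups of 4 bulk libraries, 1 library stood apart from the other libraries of its group; chance flags about 1 in 20 groups. Col11a1, a fibrillar gene, was at 113.2 CPM in tumour-free 4, below the next library at 246.4 CPM. Col15a1, a basement membrane zone collagen, was at 30.42 CPM in tumour-free 3, above the next at 15.3 CPM. Col8a2, the partner chain of Col8a1, was at 4.292 CPM in the same library, above the next at 1.817 CPM. Col27a1, a fibrillar gene, was at 245.2 CPM in Py230 4, above the next at 204.4 CPM. Col4a5, a basement membrane gene, was at 7.025 CPM in Py230 4, above the next at 0.4957 CPM, and that library had a read on more genes (36678) than any other.

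Col15a1 went opposite ways in a pair of stromal clusters. It was higher in PyMT in endothelial cluster 4 (log2 ratio 2.21) and lower in LepR+ mesenchymal-like cells (-1.2), on at most 20 UMIs a library, and the difference between the clusters was not tested.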

How the results depend on the processing

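The count of collagens higher in bulk was 1. It was 2 without a low count filter, 0 with a replicate block, 3 in DESeq2 and 0 to 2 when each library was left out. The count of lower ones was 1; it was 3 without the filter and 0 to 2 when each library was left out. Of the collagen-making and receptor genes 2 were higher; 1 was with RLE size factors, the replicate block or DESeq2, and 1 to 2 were when each library was left out. Lower were 2; 1 was with the replicate block, 4 were in DESeq2, and 1 to 3 were when each library was left out. Same-numbered libraries did not deviate together (r from -0.39 to 0.015), but differently numbered ones ran from -0.48 to 0.52. With 4 libraries a group these values cannot tell whether the numbers pair the libraries. The block ended the edgeR calls of Col6a4 (adjusted p = 0.0554), Itga2 (0.126) and Tll2 (0.0754). Over all genes the block left 176 higher and 237 lower, and leaving out each library 134 to 304 higher and 230 to 426 lower, against 324 and 447. DESeq2 called 404 and 546. The 14 collagens named by the rule were run under the alternatives, and the sign turned for 3 that had missed the threshold: Col16a1 with library totals only (0.005), Col1a2 with the replicate block (-0.019) or without Py230 3 (-0.37 to 0.445 over the libraries left out), and Col4a4 with the replicate block (-0.111) or without Py230 1 (-0.361 to 0.636 over the libraries left out). In the stroma, thinning to 1500 UMIs gave 2 lower in place of 4 in LepR+ mesenchymal-like cells, 3 higher in place of 7 and 2 lower in place of 0 in tendon-like cells, 1 higher in place of 2 in fibroblast-like and in osteolineage-like cells, 0 higher in place of 1 and 2 lower in place of 1 in sinusoidal endothelial-like cells, 0 higher in place of 2 in endothelial cluster 4, where the Col1a2 ratio turned to -0.074, and 1 lower in place of 0 in osteolineage-like cells. Means of per-cell CPM have no interval and were counted by the 1.5-fold threshold alone, a looser rule than for the main counts. They gave 3 higher in place of 1 in LepR+ mesenchymal-like cells and 1 lower in place of 0 in tendon-like and in osteolineage-like cells. They also gave 0 lower in place of 1 in fibroblast-like cells, and 2 higher and 2 lower in place of 1 each in sinusoidal endothelial-like cells. Leaving out doublets gave 0 higher in place of 2 in fibroblast-like cells and 3 in place of 1 in sinusoidal endothelial-like cells, where all deposited cells gave 2. The cause of these shifts was not tested. On simulated counts, changes of 1.5-fold were mostly missed with 4 libraries a group. Those counts had the same dispersion for every gene, so this does not hold for each gene: P4ha1 was called at 1.52-fold. Stromal ratios have no replicate.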
